A study of Mus musculus with 4 samples.

Results

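Immediate early genes are switched on within minutes of a growth or stress signal without new protein synthesis, and many encode transcription factors. The JUN and FOS proteins pair through leucine zippers to form the AP-1 factor, to which ATF3 and its relatives of the ATF family are close kin, whereas EGR1 and KLF6 bind GC-rich DNA through zinc fingers. MYC pairs with MAX at E-box sequences and raises the output of genes for growth and ribosome assembly. In liver, Myc, Jun and Fos are known for their early induction after partial hepatectomy. The values below are of 10 such genes, Myc, Mycn, Jun, Junb, Jund, Fos, Egr1, Atf3, Klf6 and Ier2. These genes were chosen by symbol, with earlier results of these data known. They had 16 of the 12422 probe sets of the Affymetrix MG_U74Av2 array that are not controls, and 10 of the 8251 genes with a symbol of their own.

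Total liver RNA came from 2 groups of male B6SJL hybrid mice aged 50 to 66 days, which had all eaten a diet of 65% protein and 10% carbohydrate for 4 weeks after weaning. A transgene in the PEPCK-TAg mice encodes the large T and small t oncoproteins of the SV40 virus, which act on the RB family and p53 and on the phosphatase PP2A. The PEPCK promoter, that of Pck1, is active in hepatocytes and also in kidney. The wild-type mice were non-transgenic. There were 2 arrays in either group. The labels leave unsaid whether a group's arrays were made from different animals, and the p-values therefore describe array-to-array spread, which may be technical.

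The median deposited signal was 77.0 and 84.7 on the PEPCK-TAg arrays, against 68.4 and 66.6 on the wild-type arrays. The hepatocyte transcript of albumin (Alb) was bright in both groups: it read 9389 and 13118.4 on the PEPCK-TAg arrays, against 15349.7 and 17282 on the wild-type arrays. The 3'/5' actin control ratio, a sign of RNA quality, was 3.82 and 3.14 on the PEPCK-TAg arrays, against 4.33 and 3.41 on the wild-type arrays. The same ratio for the GAPDH control was 4.57 and 2.9 on the PEPCK-TAg arrays, against 5.35 and 3.8 on the wild-type arrays. PEPCK-TAg 1 and wild-type 1 were scanned on the same day. PEPCK-TAg 2 alone was washed on fluidics station 2, and wild-type 2 alone was read on an M10 scanner. The chip lot cannot be told apart from the group, since no lot held arrays of both.

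The comparison asks how the expression of these early response genes differed between livers with and without the viral oncoproteins. Klf6, Myc and 1 of the Atf3 probe sets rose in PEPCK-TAg liver, and Jun, Ier2, Junb, Jund, Fos and Egr1 did not pass the test. Of the 16 probe sets, 10 were bright enough to be tested, which means above a signal of 41.3 on at least 2 arrays, and they covered 9 genes. In limma's moderated test, 3 of the 10 rose at a Benjamini-Hochberg adjusted p of 0.05 and none fell, against 9.1% of all 7877 probe sets tested that rose and 3.4% that fell. The count cannot be read as enrichment, because 2 of the 3 passed the brightness filter through the PEPCK-TAg arrays alone. Without a test, 6 of the 10 were at least 2-fold higher with no overlap between the groups and none was as much lower, where 14.7% of all probe sets tested were higher by that rule and 5.87% lower (20.5% in either direction). The groups did not overlap, in either direction, for 7 of the 10 and for 59.8% of all probe sets tested (33.3% higher). Quantile normalization left 4 of the 9 then tested past 2-fold. Over all probe sets it gave 888 higher and 695 lower, in place of 1154 higher and 462 lower.

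**Figure D1:**
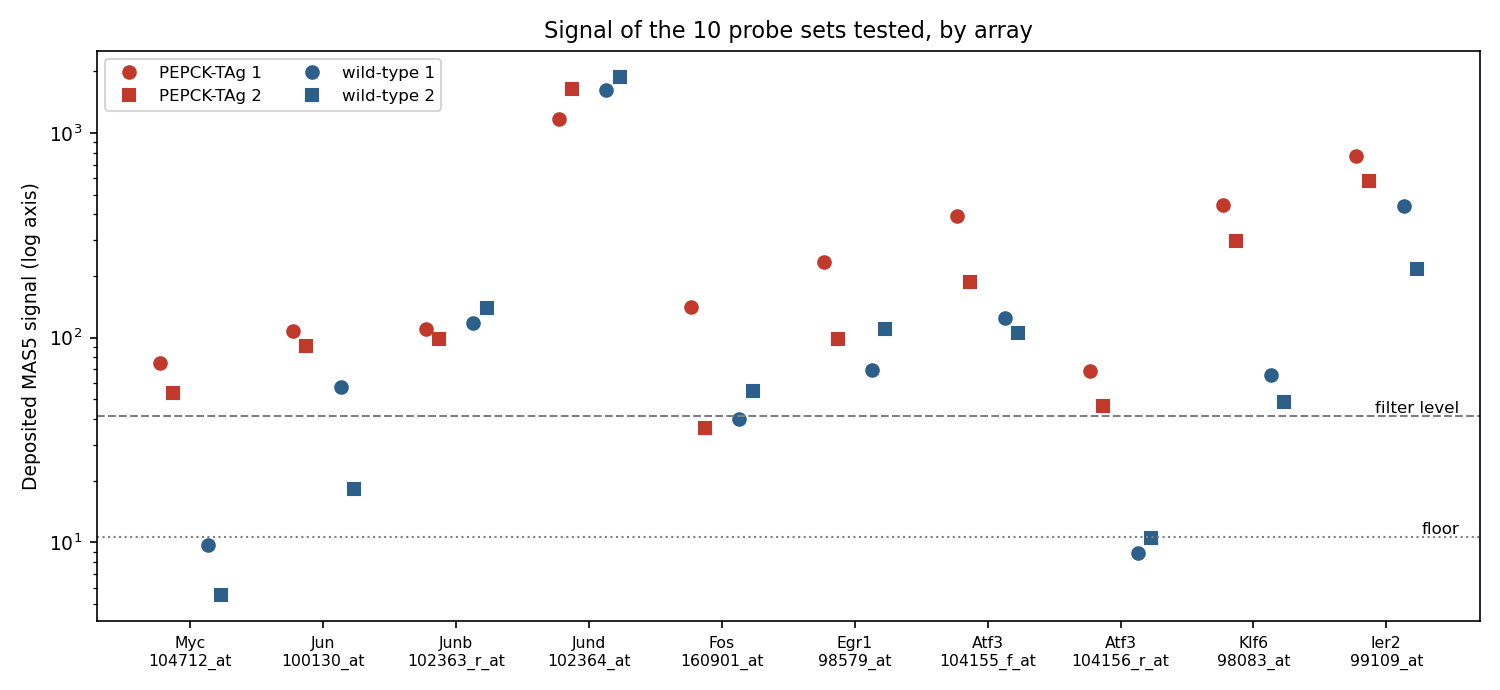
Deposited MAS5 signal on a log axis for the 10 probe sets tested, with 1 point per array. Red points are PEPCK-TAg arrays and blue points wild-type arrays, circles are replicate 1 and squares replicate 2. The dotted line is the floor of 10.6 and the dashed line the filter level of 41.3. Klf6 separates the groups with all 4 arrays above the filter level, and Myc reads under the floor on both wild-type arrays.

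Klf6, a zinc finger factor of the Krüppel-like family that is induced by injury and growth signals, rose with both groups measured above the filter level. Its signal was 446.8 and 297.5 on the PEPCK-TAg arrays, against 65.9 and 48.6 on the wild-type arrays. The lowest PEPCK-TAg array was far above the highest wild-type array. Klf6 was 6.43-fold higher in PEPCK-TAg liver (log2 difference 2.69 ± 0.33 SE, limma adjusted p = 0.00485). Every test here compares 2 arrays with 2, unless an array was left out or removed by a block, which leaves 1 in its group. The pair of arrays scanned on the same day differed by 2.76 on the log2 scale. With an array left out, Klf6 stayed between 2.39 (without PEPCK-TAg 1) and 2.98 (without PEPCK-TAg 2). With a block for the fluidics station, a setting that removes PEPCK-TAg 2 and under which limma called 0 of all 7877 probe sets (1432 passed an unadjusted p of 0.05), its adjusted p was 0.138, and with no filter it was 0.0933.

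Myc had 1 probe set, which read 75.0 and 53.7 on the PEPCK-TAg arrays, against 9.7 and 5.5 on the wild-type arrays. Both wild-type values lay under the floor of 10.6 to which low signals were raised, so only a bound on the fold can be given. Myc was at least 5.99-fold higher in PEPCK-TAg liver (log2 difference 2.58 ± 0.46 SE, limma adjusted p = 0.0167). The floor leaves the wild-type arrays with a spread of 0, and the SE holds none from them. The size rests on the floor: the log2 difference was 3.12 with a floor at the 10th percentile of all signals, and 0.62 with a floor at the 40th, where the call was lost (adjusted p = 0.14). It was also lost with no filter (adjusted p = 0.0702) and with the station block (adjusted p = 0.129), and without either PEPCK-TAg array the probe set was not tested. The relative Mycn, known from embryonic tissue and neuroblastoma, was too dim to test. Its 103048_at probe set read 28.9 and 10.8 on the PEPCK-TAg arrays, against 44.6 and 18.2 on the wild-type arrays, and these ranges overlapped. Its 161417_r_at probe set read 7.1 and 0.4 on the PEPCK-TAg arrays, against 3.8 and 7.8 on the wild-type arrays, all under the floor.

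Atf3, a stress-induced factor of the ATF family that is kept low in resting cells, had 3 probe sets that did not give the same result. The probe set 104156_r_at read 69.0 and 46.2 on the PEPCK-TAg arrays, against 8.9 and 10.5 on the wild-type arrays, both of these under the floor. It was at least 5.33-fold higher in PEPCK-TAg liver (log2 difference 2.41 ± 0.48 SE, limma adjusted p = 0.0237). The brighter 104155_f_at read 393.5 and 187.2 on the PEPCK-TAg arrays, against 125.2 and 104.9 on the wild-type arrays. Its groups did not overlap either, but the PEPCK-TAg arrays lay far apart. At 2.37-fold it missed the threshold (log2 difference 1.24 ± 0.40 SE, limma adjusted p = 0.0922), and without wild-type 1 it gave 1.37. Without PEPCK-TAg 1 it gave 0.71. The suffixes r and f are Affymetrix marks for probe sets picked under relaxed rules and for those that may share probes with related transcripts. The call of 104156_r_at was lost with a floor at the 40th percentile (0.45, adjusted p = 0.273), with no filter (adjusted p = 0.0831) and with the station block (adjusted p = 0.129). Under quantile normalization, and without either PEPCK-TAg array, it was not tested. The last probe set, 161645_r_at, read 2.2 and 3.4 on the PEPCK-TAg arrays, against 3.5 and 3.9 on the wild-type arrays, all under the floor.

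Jun, the AP-1 subunit required for normal liver regeneration, read 107.2 and 90.8 on the PEPCK-TAg arrays, against 57.4 and 18.3 on the wild-type arrays. The groups did not overlap, and the wild-type arrays differed from each other by 1.65 on the log2 scale. The difference of 3.04-fold did not pass (log2 difference 1.60 ± 0.57 SE, 95% interval 0.24 to 2.97, limma adjusted p = 0.118). The call turned on the wild-type arrays: without wild-type 1 Jun gave 2.43 and passed (adjusted p = 0.00217), and without wild-type 2 it gave 0.78 (adjusted p = 0.283). Ier2, an immediate early nuclear protein, showed a like spread. It read 775.5 and 581.9 on the PEPCK-TAg arrays, against 440 and 216.6 on the wild-type arrays, with no overlap. Its difference of 2.17-fold did not pass (log2 difference 1.12 ± 0.38 SE, 95% interval 0.21 to 2.03, limma adjusted p = 0.107), whereas without wild-type 1 it gave 1.63 (adjusted p = 0.00144) and without wild-type 2 0.61.

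Junb and Jund, the other JUN subunits, lay slightly lower in PEPCK-TAg liver and neither passed. JUNB often opposes JUN at shared sites, and JUND is the subunit found in resting cells. Junb (102363_r_at) read 110.5 and 98.2 on the PEPCK-TAg arrays, against 118.4 and 140.1 on the wild-type arrays (log2 difference -0.31 ± 0.29 SE, 95% interval up to 0.39, limma adjusted p = 0.515). Its dimmer set 102362_i_at, which was not tested, read 42.0 and 12.7 on the PEPCK-TAg arrays, against 26.6 and 35.2 on the wild-type arrays. Jund was measured far above the filter level on all arrays, at 1171.2 and 1632.8 on the PEPCK-TAg arrays, against 1627.1 and 1883.2 on the wild-type arrays (log2 difference -0.34 ± 0.26 SE, 95% interval -0.95 to 0.27, limma adjusted p = 0.413). The groups overlapped for Jund and not for Junb, and both intervals exclude a rise of 2-fold. For Jund the interval also excludes a 2-fold fall, whereas that of Junb just reaches it. Whether Jun differed from Junb or Jund in its response was not tested.

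Fos and Egr1, the genes used most often as readouts of a fresh stimulus, did not pass, and the PEPCK-TAg arrays disagreed for both. Fos (160901_at) read 141.3 and 36.2 on the PEPCK-TAg arrays, against 40.2 and 55.0 on the wild-type arrays. PEPCK-TAg 1 was the highest of the 4 and PEPCK-TAg 2 the lowest. The log2 difference was 0.60 ± 0.65 SE (95% interval -0.95 to 2.16, limma adjusted p = 0.57), while the pair of 1 scan day gave 1.81 and the other pair -0.60. Without PEPCK-TAg 2 the difference was 1.59 and still did not pass (adjusted p = 0.16). Egr1 (98579_at) read 233.9 and 98.1 on the PEPCK-TAg arrays, against 69.6 and 110 on the wild-type arrays. Here too PEPCK-TAg 1 was highest, and PEPCK-TAg 2 lay between the wild-type arrays. The log2 difference was 0.79 ± 0.48 SE (95% interval -0.36 to 1.94, limma adjusted p = 0.314), with 1.75 in the same-day pair and -0.17 in the other. Both genes had a further probe set under the filter level: 161716_at of Fos read 10.8 and 12.5 on the PEPCK-TAg arrays, against 6.6 and 22.7 on the wild-type arrays, and 161802_i_at of Egr1 read 21.1 and 33.8 on the PEPCK-TAg arrays, against 3.9 and 3.3 on the wild-type arrays. In both of these dimmer sets PEPCK-TAg 2 was the higher of the pair, the opposite order to the brighter sets. The groups did not overlap for this Egr1 set, with both wild-type values under the floor.

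**Figure D2:**
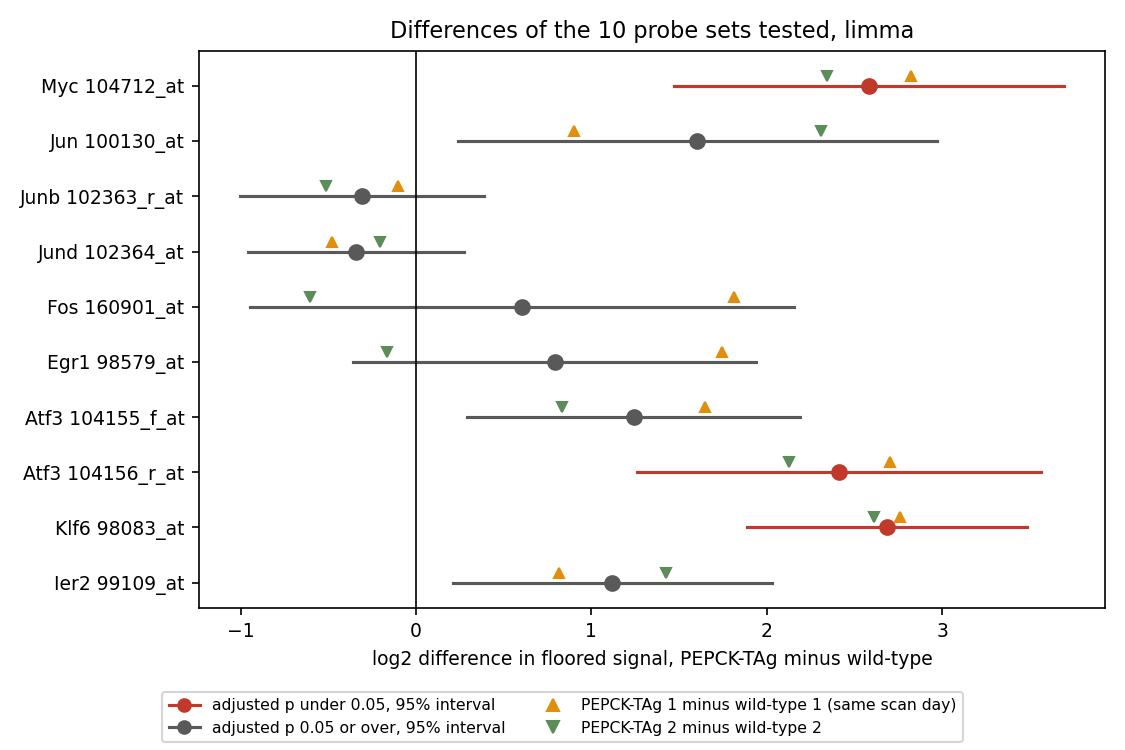
Log2 difference in floored signal, PEPCK-TAg minus wild-type, for each probe set tested, with limma's 95% interval and red where the adjusted p is under 0.05. Triangles give single pairs of arrays: upward for the pair scanned on the same day, downward for the other pair. For Klf6 and Myc both pairs lie above 2, and for Fos and Egr1 the pairs fall on opposite sides of 0.

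The disagreement of Fos and Egr1 was the extreme of a pattern over the PEPCK-TAg arrays. PEPCK-TAg 1 exceeded PEPCK-TAg 2 in 9 of the 10 probe sets tested, where it did so in 45.3% of all probe sets tested. The log2 gap between these arrays was 1.96 for Fos, 1.25 for Egr1, 1.07 for the Atf3 set 104155_f_at and 0.59 for Klf6. It was 0.58 for the Atf3 set 104156_r_at, 0.48 for Myc, 0.41 for Ier2, 0.24 for Jun and 0.17 for Junb. Jund, at -0.48, was the exception. On the wild-type arrays 4 of the 10 were higher on wild-type 1, 4 were lower and 2, Myc and the Atf3 set 104156_r_at, were tied at the floor, where 52.0% of all probe sets tested were higher on wild-type 1. Jun and Ier2 had the widest gaps there, at 1.65 and 1.02. The arrays PEPCK-TAg 1 and PEPCK-TAg 2 also differed in scan day, in fluidics station and in the actin and GAPDH ratios given above. The part of these in the gaps was not tested.

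Promoters of Klf6, Atf3, Jun and Fos are shown because their proteins, or the ATF and AP-1 factors among them, are known to act on genes of this group, Jun and Atf3 included, and because the first pair was called and the second was not. RefSeq's table (GRCm38.p6) held 7 of the 10 genes, each with 1 start site. The 250 bases before each start are printed 5' to 3' on the gene's strand. Capitals mark every match, on either strand, to the CRE core TGACGT (with the full CRE, TGACGTCA, which contains it), the ATF and JUN variant TGACATCA, the AP-1 site TGACTCA, the MYC and MAX E-box CACGTG and the EGR site GCGTGGGCG.
Klf6 (chr13:5861239-5861488, plus strand): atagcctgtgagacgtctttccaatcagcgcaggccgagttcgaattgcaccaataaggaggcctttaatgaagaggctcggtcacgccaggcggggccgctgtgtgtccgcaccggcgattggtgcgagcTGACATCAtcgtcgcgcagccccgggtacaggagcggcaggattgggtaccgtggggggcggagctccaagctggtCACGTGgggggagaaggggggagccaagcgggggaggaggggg
Atf3 (chr1:191183334-191183583, minus strand): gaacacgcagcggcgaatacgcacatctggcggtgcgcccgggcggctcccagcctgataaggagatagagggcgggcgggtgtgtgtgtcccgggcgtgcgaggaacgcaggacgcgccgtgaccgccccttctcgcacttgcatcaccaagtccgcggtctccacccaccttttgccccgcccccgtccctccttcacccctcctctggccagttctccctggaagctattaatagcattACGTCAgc
Jun (chr4:95052223-95052472, minus strand): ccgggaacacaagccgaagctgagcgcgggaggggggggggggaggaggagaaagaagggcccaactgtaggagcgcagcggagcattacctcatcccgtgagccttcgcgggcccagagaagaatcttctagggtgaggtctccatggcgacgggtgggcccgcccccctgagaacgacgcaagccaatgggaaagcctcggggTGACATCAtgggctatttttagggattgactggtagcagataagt
Fos (chr12:85473640-85473889, plus strand): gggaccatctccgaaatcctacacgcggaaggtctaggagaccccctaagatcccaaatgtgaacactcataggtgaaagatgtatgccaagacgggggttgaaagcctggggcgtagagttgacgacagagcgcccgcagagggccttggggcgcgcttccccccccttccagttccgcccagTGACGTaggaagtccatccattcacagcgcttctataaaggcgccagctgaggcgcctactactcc
Klf6 and Jun each held TGACATCA, first base 119 and 45 bases before the start, a sequence found in 2.93% of all 32851 promoters of this length. In Jun this is the kind of site at which JUN and ATF2 are known to act on the Jun gene itself. Atf3 and Fos held the core TGACGT, present in 6.47% of all promoters, on the opposite strand in Atf3 and on the same strand in Fos. Klf6 also held the E-box CACGTG 43 bases before its start (6.02% of all promoters). None of the 7 held TGACGTCA (1.55% of all promoters), TGACTCA (4.46%) or GCGTGGGCG (0.536%) in this window. A match is a description of letters: Klf6, which was called, and Jun, which was not, carried the same variant.

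Most other members of the same families did not pass. Each gene was represented by its brightest probe set, for which 9.56% of 5953 genes tested rose and 3.34% fell, with a median log2 difference of 0.072. Of 17 other AP-1, ATF and bZIP factors tested, 2 rose, 1 fell and 14 did not pass, with a median of 0.14. Nfe2, a bZIP factor of red cell and platelet precursors, read 273.5 and 366 on the PEPCK-TAg arrays, against 52.8 and 48.2 on the wild-type arrays, 6.26-fold higher (adjusted p = 0.00345 by limma). Ddit3, the stress factor CHOP, read 77.5 and 90.8 on the PEPCK-TAg arrays, against 19.8 and 20.1 on the wild-type arrays, 4.20-fold higher (adjusted p = 0.0182 by limma). Ddit3 passed the brightness filter through the PEPCK-TAg arrays alone. Its log2 difference of 2.07 became 1.02 with the floor at the 40th percentile. Fosl2, a FOS relative, went the other way, at 8.0 and 21.4 on the PEPCK-TAg arrays, against 56.4 and 88.1 on the wild-type arrays, at least 4.69-fold lower (adjusted p = 0.0404 by limma). The Fosl2 call was lost with the higher floor (log2 difference -0.77, limma adjusted p = 0.123) and the lower one (limma adjusted p = 0.0513). It was also lost with a block for the scanner, which removes wild-type 2 and gave -1.91. Fosl2 passed the brightness filter through the wild-type arrays alone. The counts of rises and falls in this list therefore cannot be read as enrichment. Of 13 other KLF, SP and EGR factors, 2 rose and 11 did not pass, with a median of 0.018. Klf1, the Krüppel-like factor of red cell precursors, was 2.92-fold higher (adjusted p = 0.0109 by limma), at 442.5 and 458.3 on the PEPCK-TAg arrays, against 161.5 and 147.3 on the wild-type arrays. The ubiquitous factor Sp3 was 2.14-fold higher (adjusted p = 0.0421 by limma), a call lost under quantile normalization (adjusted p = 0.0796), with the higher floor (0.0547), without the intensity trend (0.0619) and with no filter (0.129). Egr2, the relative of Egr1, read 50.0 and 50.2 on the PEPCK-TAg arrays, against 35.8 and 29.1 on the wild-type arrays, and did not pass (log2 difference 0.63, limma adjusted p = 0.321).

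Of 37 other immediate early genes tested, 1 rose, 2 fell and 34 did not pass, shares of 2.70% and 5.41%, with a median log2 difference of 0.24. At an unadjusted p of 0.05 in limma, 7 were higher and 6 lower. Sgk1, a kinase induced by serum and glucocorticoids, read 2151.3 and 2084.8 on the PEPCK-TAg arrays, against 699.3 and 843.1 on the wild-type arrays, 2.75-fold higher (limma adjusted p = 0.01). Dusp6, the phosphatase that switches off ERK and is itself induced by ERK signalling, read 255 and 153.6 on the PEPCK-TAg arrays, against 579.6 and 972.4 on the wild-type arrays, 3.80-fold lower (limma adjusted p = 0.0207). The Dusp6 difference was -1.93 on the log2 scale in all 4 arrays and -1.19 in the same-day pair, and Fosl2 was the other fall. Some classic members read within the spread of the arrays: Dusp1 gave 0.24, Nr4a1 -0.066 and Fosb -0.27 on the log2 scale (limma adjusted p = 0.757, 0.951 and 0.609). Others lay further apart without passing, Nfkbia at 1.15 and Zfp36 at -1.24 among them (limma adjusted p = 0.0552 and 0.0829). At least 2-fold apart without overlap were 4 of the 37 as higher and 5 as lower. Of all probe sets tested, 14.7% were higher by that rule and 5.87% lower. Among the kinases and factors that feed into these genes, 2 of 15 rose, 1 fell (Dusp6) and 12 did not pass, with a median of -0.021. Map3k1, a kinase above JNK, was 3.48-fold higher (limma adjusted p = 0.00896), and its second probe set rose too (log2 difference 1.65, adjusted p = 0.0279). Nras was 2.47-fold higher (limma adjusted p = 0.0166), while its second probe set gave 0.60 and did not pass (adjusted p = 0.244).

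Partners and targets of MYC were mostly not called. In the network of MYC, MAX and related factors, 0 of 13 genes tested passed limma's test, with a median log2 difference of 0.53 (4 were higher at an unadjusted p of 0.05). Max, the obligate partner of MYC, read 145.1 and 128.1 on the PEPCK-TAg arrays, against 77.8 and 51.4 on the wild-type arrays, with no overlap, and did not pass (log2 difference 1.11 ± 0.34 SE, adjusted p = 0.0839). The nearest to the threshold was Mxd3, a MAX partner of dividing cells, at 141 and 141.9 on the PEPCK-TAg arrays, against 26.8 and 63.5 on the wild-type arrays (log2 difference 1.78 ± 0.46 SE, adjusted p = 0.0534). Of 30 MYC target genes tested, 3 rose, none fell and 27 did not pass, a share of 10.0% beside 9.56% of all genes, with a median of 0.14. At an unadjusted p of 0.05 in limma, 9 of these targets were higher and 2 lower. Nop58 and Nop56, core proteins of box C/D small nucleolar particles, were 5.05-fold and 3.93-fold higher (limma adjusted p = 0.00709 and 0.00774), and the histone chaperone nucleophosmin (Npm1) was 1.93-fold higher (limma adjusted p = 0.0337). The Npm1 call was lost without the intensity trend (limma adjusted p = 0.0704) and with no filter (limma adjusted p = 0.07). It was also lost without wild-type 2 and with the scanner block, which removes that same array. Both of these settings gave a log2 difference of 0.95. Of other nucleolar genes in the list, Fbl, Rrs1, Ppan, Bop1 and Nolc1 did not pass, with log2 differences of 0.47, 0.42, 0.50, -0.25 and -0.47. Nucleolin (Ncl) read 1502.6 and 1914.2 on the PEPCK-TAg arrays, against 523.4 and 988.5 on the wild-type arrays, and missed the threshold (log2 difference 1.24, limma adjusted p = 0.0648). Gnl3, Cad and Apex1 also missed it, with log2 differences of 1.07, 1.59 and 0.87 (limma adjusted p = 0.0654, 0.0559 and 0.0616). The lactate dehydrogenase gene Ldha, also a MYC target, gave -0.58 (limma adjusted p = 0.125). With no filter, only 2 of the 12 genes called in these lists stayed called by limma, Klf1 and Nras. The station block, as given above, called no probe set at all. Of the 12 genes called in these lists, 1 of 11 tested stayed called without PEPCK-TAg 1 (Nfe2) and 0 of 11 without PEPCK-TAg 2, against 11 of 11 without wild-type 1 and 10 of 11 without wild-type 2.

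**Figure D3:**
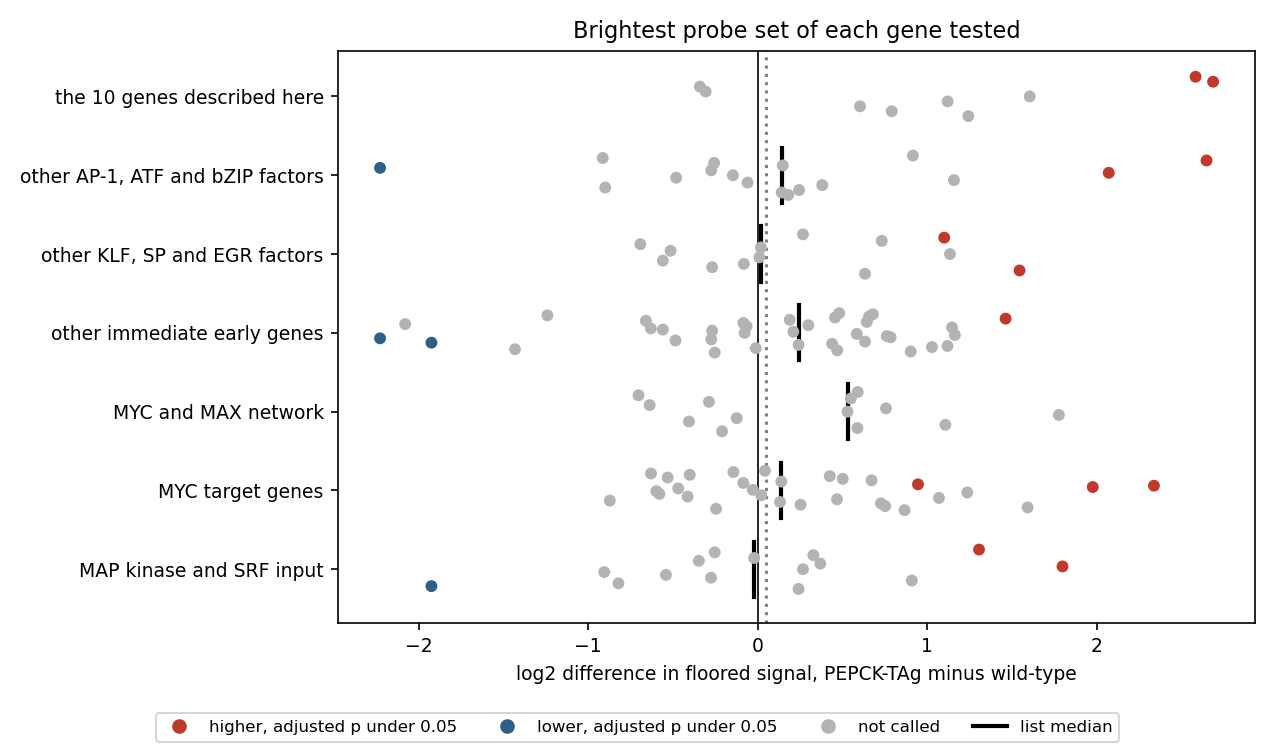
Log2 difference in floored signal, PEPCK-TAg minus wild-type, for the brightest probe set of each gene tested, by list. Red and blue points passed an adjusted p of 0.05 as higher and lower in PEPCK-TAg liver, grey points did not, black bars are list medians and the dotted line is the median of all probe sets tested, 0.051. No median is drawn for the 10 genes described here, since some entered only through the arrays on which they were high. Klf6 lies at 2.69 and Nfe2 at 2.65, Myc at 2.58 is a lower bound set by the floor, and the bars of the other lists lie between -0.021 and 0.53.

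Markers of other cells moved with the same groups. In whole liver RNA, fewer cells of a type and less RNA per cell cannot be told apart. Several called markers, S100a8, S100a9, Mpo, Hemgn, Epb42, Prom1 and Cldn7 among them, passed the brightness filter through the PEPCK-TAg arrays alone. The counts of rises below therefore cannot be read as enrichment. Of 23 myeloid markers tested, 13 rose and none fell, and the summed signal of the 27 with a probe set was 13113.6 and 17949.3 on the PEPCK-TAg arrays, against 3031.9 and 3045.6 on the wild-type arrays. Of 12 erythroid markers, 8 rose and none fell (sums of 11614.3 and 16549.9 on the PEPCK-TAg arrays, against 4268.1 and 4662.3 on the wild-type arrays), and Klf1 is itself among them. Of 19 mitosis genes, 17 rose and none fell, with sums of 15490.8 and 13799.6 on the PEPCK-TAg arrays, against 1414.1 and 1091.5 on the wild-type arrays. The biliary list had 3 of 3 genes higher (sums of 2306.9 and 3461.5 on the PEPCK-TAg arrays, against 169.1 and 151.9 on the wild-type arrays), most of it from Cd24a, at 1970.8 and 2766.3 on the PEPCK-TAg arrays, against 59.6 and 75.1 on the wild-type arrays. The bile duct keratin Krt19 was under the floor on all 4 arrays, and Epcam, too dim to test, read 1.8 and 3.9 on the PEPCK-TAg arrays, against 9.1 and 13.8 on the wild-type arrays. Endothelial markers had 1 rise among 12 (sums of 2412 and 2607.4 on the PEPCK-TAg arrays, against 3150.1 and 1840.5 on the wild-type arrays), and stellate and fibroblast markers 2 rises and 1 fall among 10 (3598.4 and 3603.4 on the PEPCK-TAg arrays, against 5084.8 and 5315.2 on the wild-type arrays). Lymphocyte markers had 2 rises and 1 fall among 6 (449.6 and 427.2 on the PEPCK-TAg arrays, against 973.4 and 1137.1 on the wild-type arrays). The gap between these sums lay mostly in Zap70, at 43.6 and 58.0 on the PEPCK-TAg arrays, against 564.3 and 723.5 on the wild-type arrays. The T cell genes Cd3g and Cd8a were under the floor throughout. No marker was at 0, but the myeloid genes Itgam and Marco were under the floor on all 4 arrays. Of 11 hepatocyte markers, 3 fell and none rose (sums of 56225.1 and 72523.9 on the PEPCK-TAg arrays, against 98406.8 and 102312.9 on the wild-type arrays). The part of these cells in the differences of Klf6, Myc, Atf3, Nfe2 and Klf1 was not tested.

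**Figure D4:**
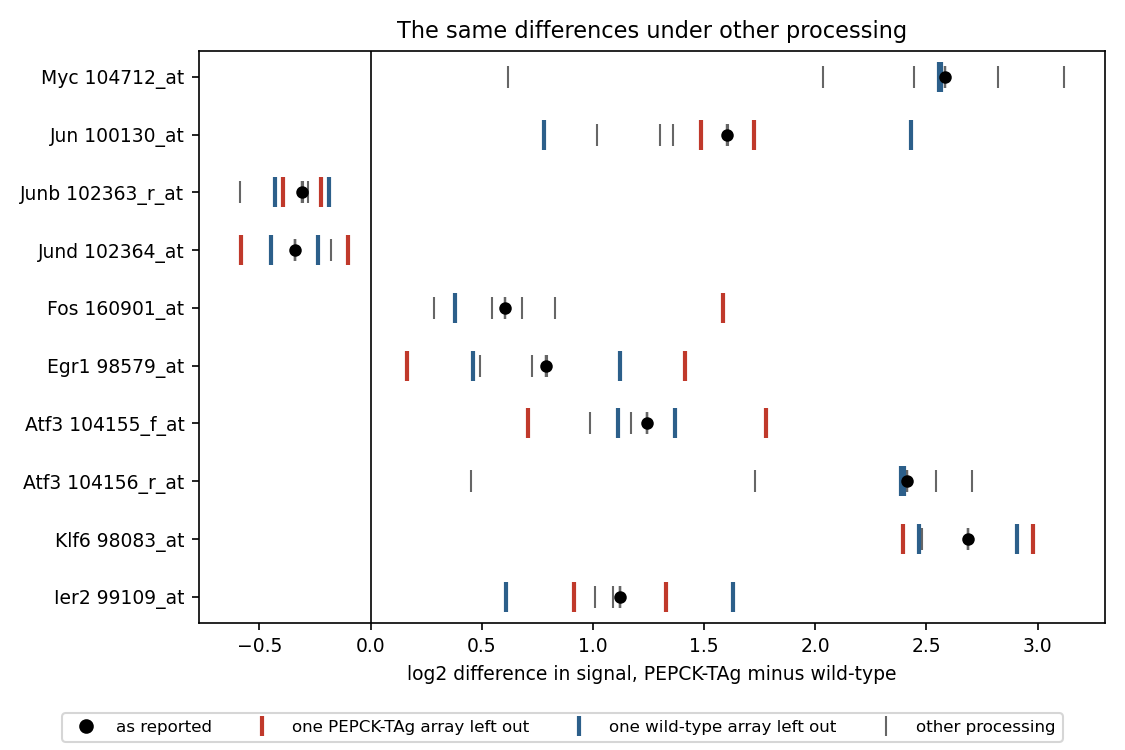
Log2 difference in signal, PEPCK-TAg minus wild-type, of each probe set tested as reported (black points) and under the processing alternatives that tested it (bars, coloured where an array was left out). No bar lies across 0 from its point, but Fos was not tested without PEPCK-TAg 1 or without wild-type 2. Klf6 stays between 2.39 and 2.98, whereas Myc reaches down to 0.62 and the Atf3 set 104156_r_at to 0.45, both with the highest floor.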

How the data were processed

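Liver RNA on 4 Affymetrix MG_U74Av2 arrays (2 PEPCK-TAg, 2 wild-type, grouped by their titles) was read from the value table the authors deposited, 1 linear signal intensity per probe set and array. Per the submitters' processing notes the intensities are MAS5 values. The MAS5 version was not stated. Array run settings (other text fields) were read per the file headers for the scan day, station, scanner and lot. The trimmed means (2% from each end) were already equal. Arrays were scaled to a common trimmed mean without the 66 controls (a change of at most 0.10%), given a floor, the 20th percentile (10.6), and put on a log2 scale. Probe sets above the 40th percentile (41.3) on at least 2 arrays were tested by limma's moderated test (limma 3.58.1, R 4.3.3, eBayes with trend, two-sided, 6.60 degrees of freedom, Benjamini-Hochberg over 7877). The procedure was run on simulated data with independent noise of the same size for every probe set. That simulation had no batch differences and cannot speak to them. With 2 arrays a side, the smallest p of an exact permutation test is 0.333. The number of arrays limits the precision. Signals printed are the deposited ones. Symbols came from the platform annotation (10833 probe sets with 1 symbol, 396 with several, 1193 with none), none from a probe set with several. From each list the called genes are named, and uncalled ones of known role were chosen after their values were seen. Alternatives changed the normalization, floor, filter, threshold and variance model, left out each array, blocked by replicate number, station or scanner, and used the same-day pair alone. The genes and lists were chosen with earlier results of these data known.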

Additional observations from a re-analysis of the deposited data

How the results depend on the processing

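All 10 probe sets kept the sign of their difference under every alternative that tested them, the single pair of 1 scan day included. Fos was not tested without PEPCK-TAg 1 or without wild-type 2. The other pair, PEPCK-TAg 2 minus wild-type 2, was not among the alternatives and gave -0.60 for Fos and -0.17 for Egr1. The number of the 10 called, 3 as reported, was 1 with a floor at the 40th percentile, 1 of 4 tested with a filter at the 60th, 6 with the replicate number as a block, 0 with no filter (4 passed an unadjusted p of 0.05 in limma) and 0 with a block for the fluidics station (5 passed an unadjusted p of 0.05), and 1 to 6 with an array left out (1 without either PEPCK-TAg array, 6 without wild-type 1). Those at least 2-fold apart without overlap, 6 as reported, numbered 3 with the filter at the 60th percentile and 2 to 6 with an array left out. Over all probe sets, the 985 calls became 165 with no filter, 1873 with the replicate block, 0 with the station as a block, 1621 at an adjusted p of 0.1 and 127 to 1689 with an array left out, and the 1616 past 2-fold became 1057 with the filter at the 60th percentile and 1399 to 1940 with an array left out. The cause of these changes was not tested, and a filter or a left-out array also changes the number of probe sets or arrays. Only 2 pairs share a replicate number and no label pairs the arrays (same-number deviations correlated at 0.253 across probe sets), so the block result is given here alone. With it Jun, Ier2 and the Atf3 set 104155_f_at also passed (adjusted p = 0.0343, 0.012 and 0.0181). Quantile normalization gave a median of -0.088 over all probe sets tested, in place of 0.051. Chip lot as a random block, chosen after seeing the data, gave no estimate of the correlation and was not run further. Signals near the floor limit Myc, Mycn and the dimmer Atf3, Fos and Egr1 probe sets.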
